A study of Mus musculus with 4 samples.

Results

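The 36 genes described here make, remove and read acetyl groups on histones and other proteins. They were chosen by gene symbol, with earlier results of these data known, and all 36 were matched among the 27179 gene IDs of the count table. They comprise 18 erasers (11 histone deacetylases and 7 sirtuins), 12 writers (acetyltransferases) and 6 bromodomain readers. The counts come from RNA sequencing of group 2 innate lymphoid cells (ILC2s), tissue lymphocytes that make type 2 cytokines, sorted from colons of the strain C57BL/6J. Of the 4 mice, 2 had a control diet and 2 a high-fiber diet, and each library came from 1 mouse. The labels name no genetic change or treatment other than diet. The sources used here do not give the kind of fiber, the time on the diet, the age of the mice or the sorting gate.

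Acetylation of lysines in histone tails is added by acetyltransferases, which use acetyl-CoA, and removed by deacetylases. Histone deacetylases of classes I, II and IV depend on zinc, whereas sirtuins consume NAD. Bromodomains are protein folds that bind acetylated lysine and bring transcription complexes to it. Gut bacteria ferment fiber to short-chain fatty acids, among them butyrate, an inhibitor of class I deacetylases, so the levels of these genes bear on which targets of butyrate the cells transcribe. Neither butyrate nor acetylation was measured in the data used here: the values are transcript levels only.

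The libraries held 20253987 to 30406730 counts assigned to genes, and library 1 of each diet was the deeper. On the first principal component of log2 CPM, which held 45.8% of the variance, high-fiber library 2 lay at 116 and the other libraries between -59.3 and -10.0. All 12 ILC2 markers were detected, with summed levels of 15464 and 13094 CPM (counts scaled to a common library size and composition) on control diet and 17042 and 16421 CPM on high-fiber diet. The 8 B and plasma cell markers summed to 156 and 39.1 CPM on control diet and to 342 and 1226 CPM on high-fiber diet. The 9 macrophage and dendritic cell markers summed to 146 and 288 CPM against 346 and 360 CPM. The 8 T cell markers summed to 780 and 892 CPM against 665 and 719 CPM, mostly from Trbc1 and Trbc2. Cd8a was at 0, and all 5 tested had negative log2 fold changes. Of those not tested, Foxp3 stood at 0.132 and 0.0476 CPM against 0.139 and 4.22 CPM. Cd4 was detected only in high-fiber library 1, at 0.416 CPM. Epithelial markers summed to at most 42.0 CPM, with Krt8, Krt20, Vil1 and Cdh1 at 0. Stromal markers summed to at most 1.66 CPM. Of the ILC3 markers, Ncr1 stood at 10.9 and 0 CPM against 1.39 and 0 CPM, and Il22, Il23r and Ccr6 were at 0. Of the mast cell markers, Cpa3 stood at 1.32 and 1.0 CPM against 0 and 0 CPM, and Mcpt1, Mcpt2 and Tpsb2 were at 0. Summed levels of 11 early response genes, such as Fos and Egr1, were 31423 and 30300 CPM on control diet and 19110 and 11221 CPM on high-fiber diet. The part of these shifts in the results below was not tested. In bulk RNA, fewer cells of a type and less RNA per cell cannot be told apart.

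The 36 genes took 0.138% to 0.160% of all counts in a library. Of these, 35 passed the filter on low counts and were tested. The exception was Hdac9, a class IIa deacetylase, which had 0 counts in every library. A count of 0 allows up to 3 counts, or 0.0993 to 0.147 CPM, depending on the library. Levels were compared between genes as CPM per kilobase of exon, averaged over the 4 libraries. The highest was Sirt7, a nucleolar sirtuin, at 46.2 CPM per kilobase (41.8 to 50.5 across libraries). That was percentile 89.2 of the tested genes with a known exonic length. Sirt2, a mostly cytoplasmic sirtuin that also deacetylates tubulin, followed at 35.5 (26.0 to 42.4). Hdac2, a catalytic subunit of the Sin3, NuRD and CoREST repressor complexes, stood at 30.8 (24.3 to 35.8). Hat1, which acetylates newly made histones before they enter chromatin, stood at 26.4 (19.0 to 36.4). Neighbours among these 4 genes overlapped in range. Sirt7 lay above Sirt2 in each library, whereas the order of Sirt2 and Hdac2, and of Hdac2 and Hat1, differed between libraries. With the longest transcript as length, Sirt2 (84.4) came before Sirt7 (72.7), and Hdac2 and Hat1 kept ranks 3 and 4.

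**Figure D1:**
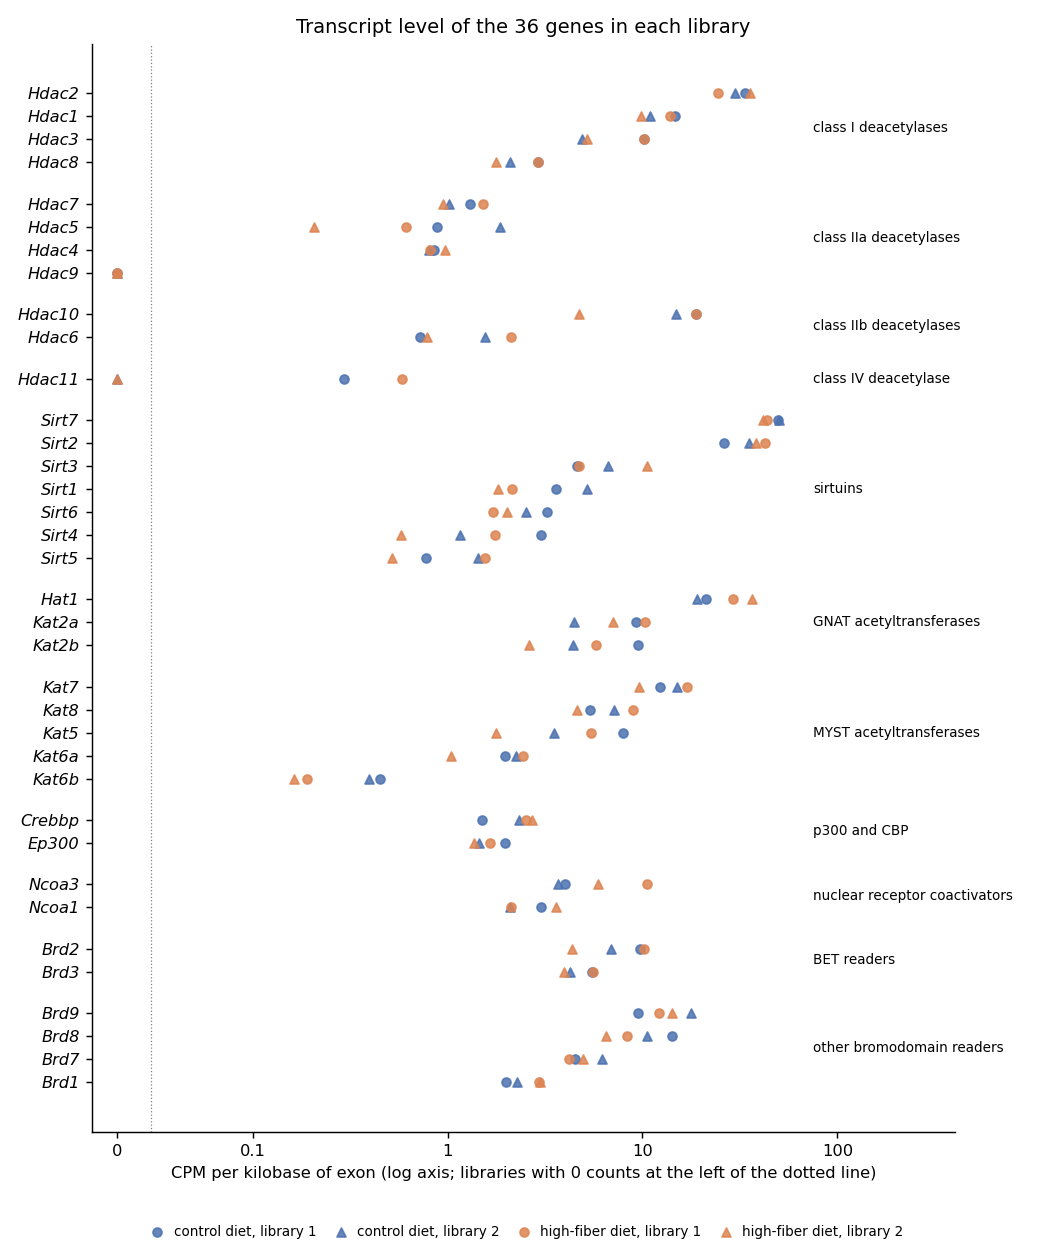
Level of the 36 genes in CPM per kilobase of exon on a log axis, 1 point per library, grouped by class. Libraries with 0 counts stand left of the dotted line. Sirt7, Sirt2, Hdac2 and Hat1 lead, and Hdac9 is at 0 in all 4 libraries.

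Below these 4 genes came Hdac10, Kat7, Brd9, Hdac1 and Brd8, at 9.89 to 14.3 CPM per kilobase, with ranges that overlapped. Within class I, Hdac2 stood above Hdac1 (12.4), Hdac3 (7.60) and Hdac8 (2.42), and its lowest library exceeded every library of the other 3. Hdac3 is the catalytic subunit of the NCoR and SMRT corepressor complexes. The class IIa deacetylases, which bind MEF2 transcription factors and leave the nucleus when phosphorylated, were low: Hdac7 stood at 1.2, Hdac5 at 0.889 and Hdac4 at 0.859 CPM per kilobase. Hdac11, the only class IV enzyme, was at 0.219 and had counts in library 1 of each diet only. The large coactivators Ep300 and Crebbp, which acetylate histones at enhancers, stood at 1.61 and 2.26. Kat6b, a catalytic subunit of complexes that hold Brd1 or its relatives, was the lowest writer, at 0.300. Summed per library, the 7 sirtuins reached 90.7 to 103 CPM per kilobase and the 4 class I enzymes 47.7 to 61.2, while the 4 class IIa enzymes reached 2.13 to 3.66. Most of the sirtuin sum came from Sirt7 and Sirt2. By median per gene the order differed: 9.98 for class I, 3.18 for the sirtuins and 0.874 for class IIa.

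None of the 35 tested genes passed the diet comparison at an adjusted p of 0.05 (edgeR quasi-likelihood test, Benjamini-Hochberg over 11841 genes), and the smallest adjusted p was 0.459. The same threshold called 4 genes in all, which is 0.0338% of those tested. DESeq2 called 234 genes, or 1.84% of those it adjusted, and again none of the 35, with a smallest adjusted p of 0.225. At an unadjusted p under 0.05, edgeR gave 2 higher members, Ncoa3 and Hat1 (5.71%, against 4.7% of all genes), and 1 lower member, Brd8 (2.86%, against 4.1% of all genes). At that unadjusted level DESeq2 gave Ncoa3 and Hat1 higher (5.71%, against 5.05% of the same genes) and Brd8 and Sirt1 lower (5.71%, against 3.88%). In 5 genes (14.3%) both high-fiber libraries lay above both control libraries, and in 6 (17.1%) below both. Over all genes tested these shares were 18.5% and 19.6%. The median log2 fold change was -0.033 over the 35 genes and -0.016 over all genes, and 15 of the 35 were positive and 20 negative. That balance rests on single libraries: the members' median was -0.38 (11 positive, 24 negative) without high-fiber library 1, 0.14 (19 and 16) without high-fiber library 2, 0.091 (20 and 15) without control library 1 and -0.14 (14 and 21) without control library 2. These shares lay near or below the background, and with 2 mice per diet the intervals below allow changes of considerable size in most of the genes.

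**Figure D2:**
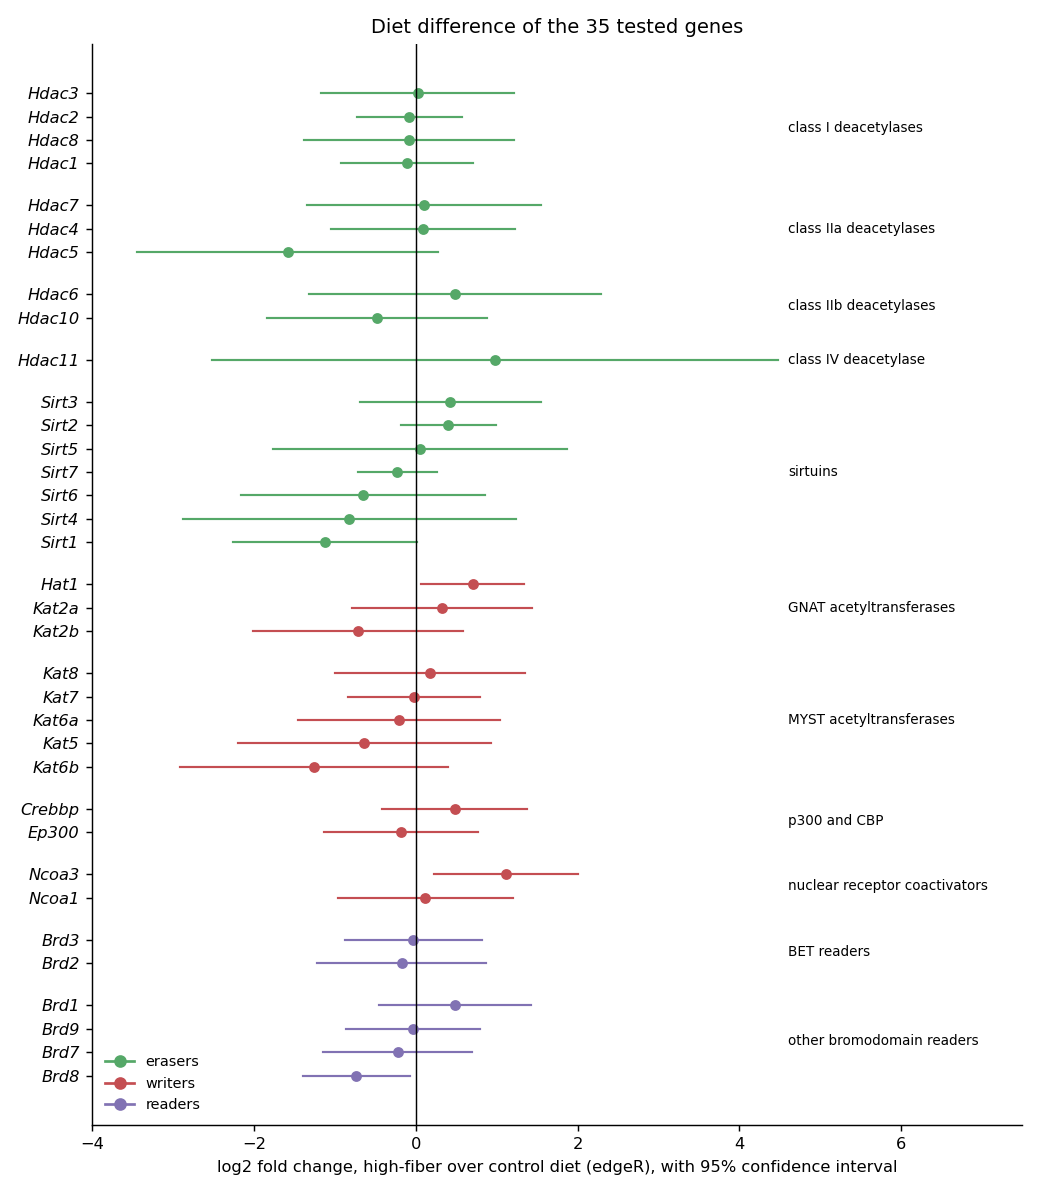
Log2 fold change of each tested gene, high-fiber over control, with its 95% interval from edgeR, grouped by class. The intervals of Ncoa3 and Hat1 lie above 0 and that of Brd8 lies below 0, and no gene passes the adjusted threshold.

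Among the erasers, all 4 class I deacetylases overlapped between the diets, with log2 fold changes from -0.11 to 0.024. Hdac2 stood at 149 and 133 CPM on control diet and at 109 and 160.2 CPM on high-fiber diet. The diets overlapped, and the log2 fold change was -0.078 (95% interval -0.72 to 0.57), which leaves room for folds from 0.605 to 1.48. Hdac1 (-0.11), Hdac3 (0.024) and Hdac8 (-0.087) also overlapped, with intervals that reached at most 1.22 above and -1.39 below 0. The median of the 4 class I genes was -0.082.

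In class IIa, Hdac5 stood at 7.78 and 16.2 CPM on control diet and at 5.37 and 1.82 CPM on high-fiber diet. Both high-fiber libraries were the lower ones, but the libraries within each diet were far apart. The log2 fold change was -1.59 ± 0.78 (SE; 95% interval -3.45 to 0.28; edgeR adjusted p = 0.651), and it ranged from -2.63 to -1.03 when 1 library was left out, lowest without high-fiber library 1. Hdac7, the highest of the class per kilobase of exon but not in CPM or by longest transcript, stood at 8.84 and 6.86 CPM against 10.3 and 6.43 CPM. Its diets overlapped, and its log2 fold change of 0.10 turned to -0.29 without high-fiber library 1. Hdac4 changed by 0.09 (-1.05 to 1.23), but 22.4% of its exonic bases are shared with a long noncoding RNA on the opposite strand, Gm26720. The sources used here do not say whether counting used strand, and reads of such overlaps may not be separated.

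In class IIb, Hdac10, known as a deacetylase of acetylated polyamines, stood at 63.8 and 50.2 CPM on control diet and at 63.6 and 15.9 CPM on high-fiber diet. Only high-fiber library 2 was low, and high-fiber library 1 matched the controls. The log2 fold change of -0.48 (-1.84 to 0.88) was -1.82 without high-fiber library 1 and 0.14 without high-fiber library 2, so its direction rests on that library. Hdac6, the main tubulin deacetylase, gave 0.49 (-1.32 to 2.29). Hdac11 had 34 and 0 counts on control diet and 65 and 0 counts on high-fiber diet, or 1.13 and 0 against 2.25 and 0 CPM. Library 1 held all of its counts in both diets, and its interval spanned -2.52 to 4.48. Hdac11 shares 15.4% of its exonic bases with Gm44002 and 2.49% with Gm14573, both on the opposite strand.

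Of the sirtuins, Sirt1, a nuclear deacetylase of histones and transcription factors, had 19.1 and 27.7 CPM in the control libraries and 11.4 and 9.62 CPM in the high-fiber libraries. The high-fiber libraries lay below both controls, at 23.4 ± 6.04 against 10.5 ± 1.23 CPM (mean ± SD, n = 2 mice each). On the log2 scale, the fold change was -1.12 ± 0.47 (95% interval -2.26 to 0.0105; edgeR adjusted p = 0.571). Sirt7 stood at 254 and 259.7 CPM on control diet and at 223 and 215 CPM on high-fiber diet. Its libraries differed little within each diet, and both high-fiber libraries were lower, with a log2 fold change of -0.23 ± 0.20 (-0.72 to 0.26; adjusted p = 0.824). Sirt2 stood at 131 and 177 CPM against 214 and 193 CPM. Both high-fiber libraries were higher, but the control libraries were farther apart than the nearest control and high-fiber libraries. The fitted log2 difference was 0.40 ± 0.24 (-0.18 to 0.99; adjusted p = 0.726), and it was 0.20 without control library 1 and 0.63 without control library 2. Sirt6, a chromatin-bound sirtuin, stood at 8.97 and 7.0 CPM against 4.78 and 5.64 CPM. The high-fiber libraries were lower, with a log2 fold change of -0.65 ± 0.63 (-2.17 to 0.86; adjusted p = 0.839). The mitochondrial sirtuins overlapped between the diets: Sirt3 gave 0.43, Sirt4 -0.82 and Sirt5 0.052. Sirt3 shares 7.0% of its exonic bases with Ric8a and 5.73% with Psmd13, both on the opposite strand. The 7 sirtuins had a median of -0.23 and moved in both directions.

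Among the writers, Hat1 had 61.0 and 54.9 CPM on control diet and 84.2 and 105 CPM on high-fiber diet. Both high-fiber libraries lay above both controls, at 94.7 ± 14.8 against 57.9 ± 4.31 CPM (mean ± SD, n = 2 mice each). The log2 fold change was 0.70 ± 0.27, a 1.63-fold difference (95% interval 1.05 to 2.53; edgeR adjusted p = 0.515). It was 0.53 without high-fiber library 2 and 0.88 without high-fiber library 1. Hat1 serves histone supply in dividing cells. The 8 markers of dividing cells summed to 167 and 189 CPM on control diet and to 149.8 and 143 CPM on high-fiber diet, a sum made up mostly of the replication genes Pcna, Mcm2 and Mcm5. Those 3 had negative log2 fold changes, and 4 markers had positive ones, among them Mki67, at 0.132 and 2.19 CPM against 0.173 and 15.6 CPM. Mki67, Cdk1 and Birc5 were highest in high-fiber library 2, where Hat1 was also highest. In that same library Mcm2 and Mcm5 were lowest, at 4.56 and 3.48 CPM. Top2a was highest in high-fiber library 1 and Pcna in control library 1. The part of cell division in the Hat1 difference was not tested. The other GNAT family members, Kat2a and Kat2b, are alternative catalytic subunits of the SAGA and ATAC coactivator complexes. Kat2b stood at 46.1 and 21.4 CPM against 28.0 and 12.7 CPM. Library 1 was the higher in each diet and the diets overlapped. Its log2 fold change was -0.72 ± 0.54 (-2.02 to 0.58; adjusted p = 0.790), or -0.039 without control library 1, -0.31 without high-fiber library 2, -1.15 without control library 2 and -1.42 without high-fiber library 1. Kat2a gave 0.32 (-0.79 to 1.43).

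Ncoa3, a coactivator of nuclear receptors with acetyltransferase activity, had the smallest p of the 36 genes. It stood at 31.7 and 28.9 CPM on control diet and at 83.2 and 46.9 CPM on high-fiber diet. The control libraries lay close together, both high-fiber libraries lay above them, and high-fiber library 1 was far above high-fiber library 2. On the log2 scale, the fold change was 1.11 ± 0.37, a 2.16-fold difference (95% interval 1.17 to 4.01). The edgeR adjusted p was 0.459 and that of DESeq2 0.225. The log2 value was 0.65 without high-fiber library 1 and 1.45 without high-fiber library 2. Only 154 exonic bases of Ncoa3, or 1.95%, are shared with its neighbour Sulf2. Ncoa1, its relative, gave 0.11 (-0.97 to 1.2).

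In the MYST family, Kat6b stood at 7.58 and 6.67 CPM on control diet and at 3.19 and 2.75 CPM on high-fiber diet. The libraries of each diet lay close together and the diets did not overlap. The log2 fold change was -1.26 ± 0.69 (-2.92 to 0.40; edgeR adjusted p = 0.687) and ranged from -1.36 to -1.15 when 1 library was left out. The counts behind it were 56 to 229 per library, and RefSeq lists pseudogenes of Kat6b. Kat7, the most abundant of the family per length, stood at 68.2 and 82.9 CPM against 94.1 and 53.1 CPM. The high-fiber libraries lay on either side of the controls, and the log2 fold change was -0.018. Kat5, the catalytic subunit of the TIP60 complex, gave -0.64 (-2.20 to 0.93), Kat6a -0.21 and Kat8, of the MSL and NSL complexes, 0.17. Kat5 shares 12.1% of its exonic bases with Rnaseh2c on the opposite strand.

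Crebbp stood at 20.3 and 31.4 CPM on control diet and at 34.1 and 36.9 CPM on high-fiber diet. The high-fiber libraries lay just above the higher control library. Its log2 difference was 0.48 ± 0.37 (-0.42 to 1.38; edgeR adjusted p = 0.799), or 0.18 without control library 1 and 0.80 without control library 2. Its paralogue Ep300 gave -0.18 (-1.14 to 0.77), with overlapping diets. The difference between these paralogues was not tested. Over the 12 writers the median log2 fold change was 0.048, with 6 positive and 6 negative.

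Among the readers, Brd8, a subunit of the TIP60 acetyltransferase complex, had 151 and 112 CPM on control diet and 88.3 and 69.3 CPM on high-fiber diet. Both high-fiber libraries lay below both controls, at 78.8 ± 13.4 against 131 ± 27.5 CPM (mean ± SD, n = 2 mice each). Its log2 fold change was -0.74 ± 0.28, a fold of 0.600 (95% interval 0.380 to 0.949; edgeR adjusted p = 0.509), and it was -0.50 without control library 1. Kat5, which works in the same complex, had the same sign but overlapped between the diets. Brd1, a scaffold of MYST acetyltransferase complexes, stood at 16.8 and 19.0 CPM against 24.8 and 24.9 CPM. Both high-fiber libraries were higher, by 0.48 ± 0.39 on the log2 scale (-0.45 to 1.42; adjusted p = 0.802).

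The BET proteins Brd2 and Brd3 bind acetylated histones and help recruit the transcription machinery. Brd2, the higher of the pair per length, stood at 76.3 and 54.2 CPM against 80.1 and 34.2 CPM. High-fiber library 2 was the lowest and high-fiber library 1 the highest, so the log2 fold change of -0.18 (-1.22 to 0.86) turned to 0.28 without high-fiber library 2. Brd2 shares 5.18% of its exonic bases with CR974462.3 and 4.6% with H2-DMa, both on the opposite strand. Brd3 gave -0.03 (-0.88 to 0.82). Brd9, of the non-canonical BAF remodelling complex, stood at 65.7 and 123 CPM against 84.3 and 98.8 CPM. The high-fiber libraries lay between the controls, and the log2 fold change was -0.033 (-0.86 to 0.80). Brd7, of the PBAF complex, gave -0.22 (-1.15 to 0.70). Of the 6 readers, 5 were negative and 1 was positive, and the median was -0.10.

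**Figure D3:**
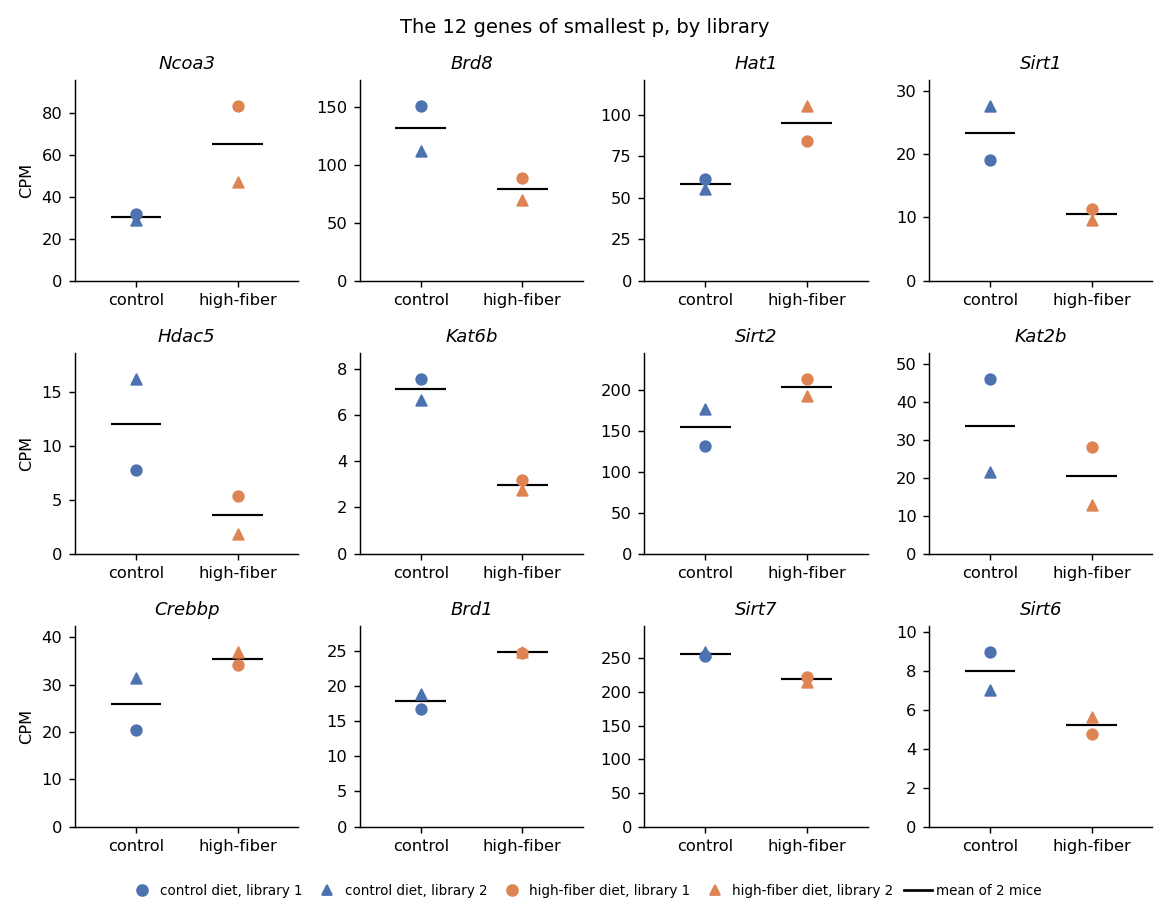
CPM in each library for the 12 tested genes of smallest p, with control and high-fiber diet side by side and a line at the mean of 2 mice. The diets do not overlap in 11 of the 12, Kat2b being the exception; these are 11 of 35 tested genes (31.4%), against 38.2% of all genes.

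The 250 bases upstream of the annotated start are shown for Hat1, Sirt1 and Hdac5, 3 of the 5 genes of smallest p, so that the promoters of a gene that was higher and of others that were lower in the high-fiber libraries can be read side by side. They come from RefSeq's GRCm38.p6 table and run 5′ to 3′ on the gene's strand. Capitals mark matches, on either strand, to the GC box GGGCGG, the CCAAT box CCAAT, the TATA box TATAAA, the CRE core TGACG and the EGR site GCGTGGGCG. Matches to GGGCGG may share bases with each other. Hat1 (chr2:71389010-71389259, plus strand), Sirt1 (chr10:63339036-63339285, minus strand) and Hdac5 (chr11:102230173-102230422, minus strand) read as follows.
Hat1: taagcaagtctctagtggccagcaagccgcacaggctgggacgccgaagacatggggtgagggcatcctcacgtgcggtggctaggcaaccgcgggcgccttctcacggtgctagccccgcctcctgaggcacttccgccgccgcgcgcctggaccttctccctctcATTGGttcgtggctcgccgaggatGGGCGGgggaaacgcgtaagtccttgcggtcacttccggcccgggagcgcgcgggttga
Sirt1: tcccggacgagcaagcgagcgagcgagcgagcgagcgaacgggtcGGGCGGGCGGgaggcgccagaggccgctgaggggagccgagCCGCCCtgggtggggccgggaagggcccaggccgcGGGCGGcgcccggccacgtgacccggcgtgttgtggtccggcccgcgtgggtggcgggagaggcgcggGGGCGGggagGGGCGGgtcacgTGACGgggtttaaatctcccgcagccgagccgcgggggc
Hdac5: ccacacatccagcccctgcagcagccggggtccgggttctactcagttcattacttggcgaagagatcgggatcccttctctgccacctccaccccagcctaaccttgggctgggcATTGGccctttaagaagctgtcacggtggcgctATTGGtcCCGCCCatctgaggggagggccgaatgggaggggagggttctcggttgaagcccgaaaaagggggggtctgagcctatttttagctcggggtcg

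The Hat1 stretch held 1 GC box and 1 CCAAT box, at a GC content of 67.6%. The Sirt1 stretch was richer in G and C, at 79.2%, with 6 GC box matches and 1 CRE core and no CCAAT box. The Hdac5 stretch held 1 GC box and 2 CCAAT boxes, at 60.8%. None of the 3 held a TATA box or the EGR site. Among the 30 of the 36 genes in the promoter table, 24 held a GC box, 13 a CCAAT box, 11 a CRE site, 2 a TATA box and 0 the EGR site. Over all 32851 promoters of that length, of genes expressed or not, these motifs stood in 32.7%, 33.8%, 17.8%, 12.4% and 0.536%. The members were counted per gene, with a match in any promoter of the gene, and the background per promoter. The shares are therefore not of the same kind. A match describes the letters and not a bound site.

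Differences between the mice of a diet were as large as the diet differences for many of the genes. Of the 35 tested genes, 16 (45.7%) were higher in library 1 than in library 2 in both diets, 5 (14.3%) were lower in both, and 14 (40.0%) went opposite ways. Over all genes tested these shares were 28.5%, 25.9% and 44.3%. The median log2 ratio of library 1 to library 2 was 0.16 on control diet and 0.50 on high-fiber diet for the 34 genes with counts in every library, against 0.013 and 0.014 over all genes. Hdac3, Kat2b, Kat5 and Sirt4 were at least 0.96 higher in library 1 on the log2 scale in both diets. Hdac10 stood 2.00 higher in high-fiber library 1 than in high-fiber library 2. Library 1 was also the deeper library of each diet, and the part of depth in this pattern was not tested. The labels do not say whether the numbers of the libraries pair the mice.

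**Figure D4:**
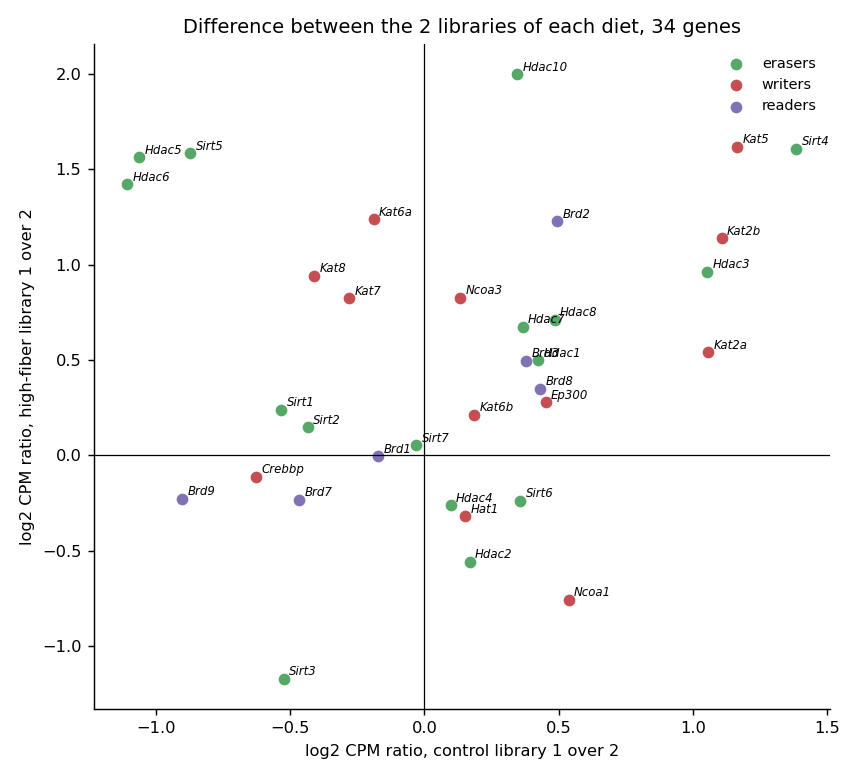
Log2 ratio of library 1 to library 2 on control diet (x axis) and on high-fiber diet (y axis), 1 point per gene, for the 34 genes with counts in every library. The 16 genes higher in library 1 in both diets lie above 0 on both axes, apart from Hdac11, which is at 0 in library 2 and is not plotted, and 5 lie below 0 on both.

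The genes around these 36 were described from 7 lists of 140 genes, of which 131 were tested. None passed the adjusted threshold in edgeR. At an unadjusted p under 0.05 there were 6 with higher and 6 with lower levels on high-fiber diet, 4.58% each way against 4.7% and 4.1% of all genes. Their median log2 fold change was -0.021. DESeq2 called 2 of them at its adjusted threshold, Ncor1 and Nmrk1, both higher, which is 1.53% against 1.84% of all genes. Among 30 subunits of deacetylase corepressor complexes, 19 were positive and 11 negative, with a median of 0.14. Ncor1, the corepressor that activates Hdac3, stood at 575 and 314 CPM on control diet and at 894 and 1222 CPM on high-fiber diet. Both high-fiber libraries lay above both controls, with a log2 fold change of 1.25 ± 0.33 (edgeR adjusted p = 0.447; DESeq2 adjusted p = 0.0170). Suds3, a subunit of the Sin3 complex, stood at 46.9 and 32.5 CPM against 71.7 and 124 CPM, a log2 fold change of 1.28 ± 0.37 (adjusted p = 0.447), or 0.83 without high-fiber library 2. The deacetylases these corepressors work with, Hdac3 and the Hdac1 and Hdac2 pair, overlapped between the diets.

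Among 35 partners of the acetyltransferases, 17 were positive and 18 negative. Tada2a, an adaptor of the GNAT enzymes, stood at 23.7 and 22.3 CPM against 6.82 and 10.5 CPM, a log2 fold change of -1.45 ± 0.49 (edgeR adjusted p = 0.461). Msl3, which works with Kat8, stood at 21.6 and 21.4 CPM against 40.8 and 46.5 CPM, or 1.02 ± 0.33 (adjusted p = 0.456). In both genes the diets did not overlap and the control libraries nearly coincided. Of the 24 other reader genes tested, 10 were positive and 14 negative. Dpf2, a BAF subunit, gave -0.62 ± 0.24 and Mllt1, a YEATS domain reader, gave 1.76 ± 0.85 from at most 5.85 CPM (adjusted p = 0.526 and 0.642). For class IIa partners and kinases the counts were 8 positive and 9 negative. Prkd3, a protein kinase D, stood at 64.5 and 57.5 CPM against 118 and 86.8 CPM (0.75 ± 0.28; adjusted p = 0.499). Mef2b, a MEF2 factor that class IIa enzymes can bind, had 98 counts on control diet and 0 on high-fiber diet, at least 31.4-fold lower against 3 counts over the high-fiber libraries. Its edgeR adjusted p was 0.447, at no more than 2.43 CPM. Mef2c, another MEF2 factor of this list, was named after its values were seen. It had 0 counts in both control libraries and in high-fiber library 1, and 99 in high-fiber library 2. The diets overlapped, so no bound on a diet fold is given, and the gene did not pass the filter.

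The NAD supply list, which feeds the sirtuins, had 2 positive and 9 negative genes and a median of -0.12. Nmrk1, a nicotinamide riboside kinase, stood at 22.7 and 12.7 CPM on control diet and at 78.8 and 127 CPM on high-fiber diet. Both high-fiber libraries were several-fold above both controls, with a log2 fold change of 2.49 ± 0.41 (edgeR adjusted p = 0.336; DESeq2 adjusted p = 5.54e-06). Nnt, the mitochondrial transhydrogenase, stood at 73.6 and 58.5 CPM against 39.1 and 28.7 CPM (-0.96 ± 0.32; adjusted p = 0.458). The acetyl-CoA supply list had 4 positive and 6 negative genes and none at an unadjusted p under 0.05. It holds Slc33a1, the acetyl-CoA transporter of the endoplasmic reticulum (-1.58 ± 0.69; adjusted p = 0.599), and Slc16a1, a monocarboxylate transporter that can carry butyrate (0.58 ± 0.40; adjusted p = 0.761). Slc16a1 stood at 72.5 and 37.9 CPM against 103 and 64.0 CPM, and the diets overlapped. Its log2 value was 0.20 without control library 2, 0.22 without high-fiber library 1 and 1.14 without control library 1. The butyrate transporter Slc5a8 had 0 counts in every library. Of the 4 inhibitors of histone acetylation, Anp32a stood at 25.4 and 29.8 CPM against 44.3 and 60.2 CPM (0.92 ± 0.34; adjusted p = 0.499), and Anp32e gave 0.40 ± 0.28 (adjusted p = 0.773), or 0.061 without high-fiber library 2 and 0.71 without high-fiber library 1.

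**Figure D5:**
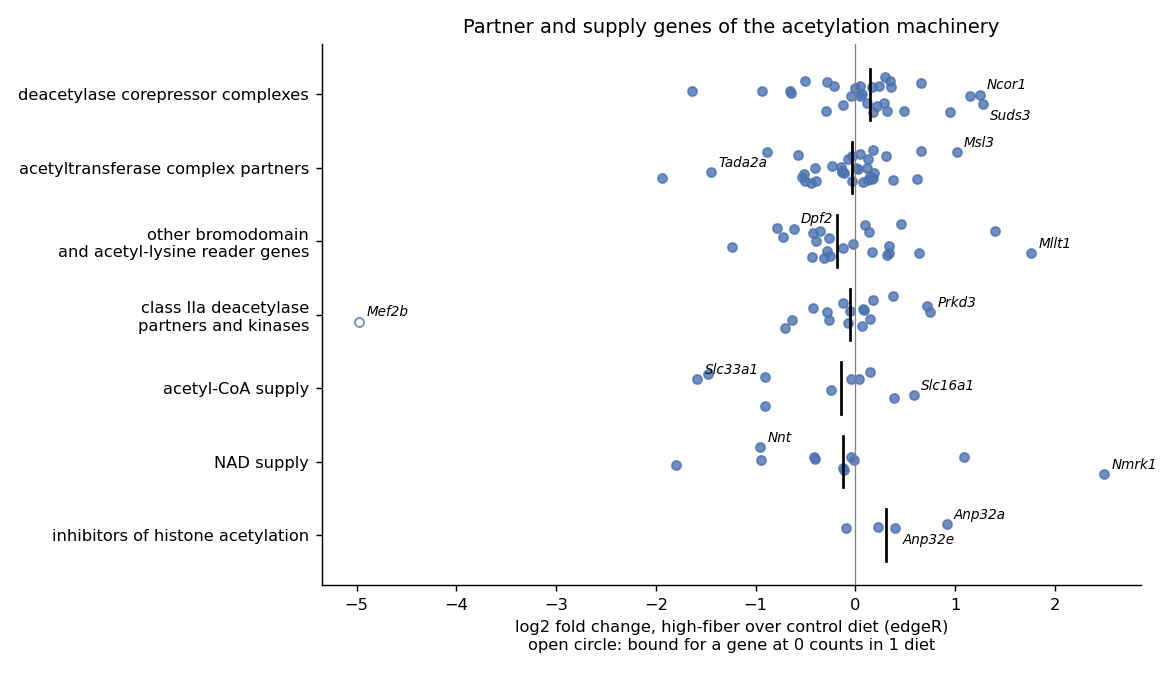
Log2 fold change of each tested gene in the 7 pathway lists, high-fiber over control, 1 point per gene with the list median as a line. The open circle is the bound for Mef2b, which covers counting error only. The list medians lie between -0.19 and 0.31, and the genes of each list fall on both sides of 0.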

How the data were processed

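The deposited file holds read counts per gene for 4 libraries, which the authors made from SMARTer ultra low input libraries per the labels' protocols. The submitters' processing notes name CASAVA 1.8.2, STAR 2.3.0 and mm10. Which program counted the reads, and whether by strand, is not given in the sources used here. All 4 value columns matched a sample by name, and 0 did not. Gene IDs were matched to symbols with RefSeq's GRCm38.p6 table (25275 of 27179 matched).

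The members and gene lists were chosen with earlier results of these data known. Genes with low counts were removed with filterByExpr, and 11841 were tested with edgeR 4.0.16 in R 4.3.3 (TMM scaling, glmQLFit with legacy=FALSE, glmQLFTest, Benjamini-Hochberg over all genes, threshold 0.05). With legacy=TRUE the same test called 0 genes. The SE is the log2 fold change divided by the root of F, intervals are 95%, and the common biological coefficient of variation was 0.607 at 2 residual degrees of freedom. The script was tested on simulated data. CPM values use the TMM-scaled library size. Per-kilobase levels use the union of exons in GENCODE M21 (GRCm38), and 15 members share exonic bases with another gene. Totals were 20253987 to 30406730 counts per library, and the limit of 3 counts covers counting error only. Genes named with values were the members called, the 12 of smallest p, the member of highest level per length in each class, and from each list up to 4 called genes or otherwise the 2 of smallest p; Slc5a8, Mef2c and the markers were named in addition.

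The alternatives were scaling by RLE, by the upper quartile or not at all, no filter, a filter of 5 CPM in 2 libraries, legacy and robust settings, DESeq2 1.42.0, limma-voom 3.58.1, a replicate block, each library left out, and another gene length. With 1 library left out, the lone library of a diet is assumed to vary like the other diet's.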

Additional observations from a re-analysis of the deposited data

How the results depend on the processing

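None of the tested members was called at an adjusted p of 0.05 under any alternative, nor at 0.1 in edgeR. The 12 members of smallest p kept their sign in all 168 values. They were picked by p from these same data, and in all but Kat2b the diets did not overlap. Their kept signs therefore follow largely from that choice. Leaving out 1 library gave log2 ranges of 0.65 to 1.45 for Ncoa3, 0.53 to 0.88 for Hat1, -0.93 to -0.50 for Brd8 and -1.39 to -0.86 for Sirt1. With all libraries kept, Sirt1 was past an unadjusted p of 0.05 in DESeq2 and limma-voom. In edgeR it was so without scaling factors, without a filter and with the legacy and robust settings. It was not in the main fit, with RLE or upper-quartile scaling, the filter of 5 CPM or the replicate block. Ncoa3, Hat1 and Brd8 were past an unadjusted p of 0.05 under every scaling and filter and in DESeq2 and limma-voom, but none was without control library 1 or control library 2. Without high-fiber library 2, Ncoa3 alone was. Without high-fiber library 1, Brd8, Hat1, Hdac10 and Sirt3 were.

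Among the 7 other members named with values, 83 of 97 values kept their sign. Those that turned when 1 library was left out ranged from -0.38 to 0.21 for Hdac2, -0.29 to 0.36 for Hdac7, -1.82 to 0.14 for Hdac10, -0.48 to 0.32 for Kat7, -0.92 to 0.28 for Brd2 and -0.42 to 0.48 for Brd9. For Hdac11 the range of -6.98 to 7.93 rests on counts of 0, and such fitted values depend on the prior count. Brd9 was also 0.052 with limma-voom and 0.022 with the replicate block. The cause was not tested.

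The pathway lists held 2 called genes with DESeq2 and 0 with edgeR. Among all genes, DESeq2 called 234, edgeR 4, and limma-voom, the unfiltered edgeR fit and the fit with the replicate block 0. The median level of the members was 4.74 CPM per kilobase with the exon union and 6.07 with the longest transcript, which is shorter by construction.

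The labels do not say whether libraries of the same replicate number share more than the number. Across genes the library 1 to library 2 log ratios of the diets correlated at 0.079 (Pearson) and 0.114 (Spearman). A shared batch was not tested. With the replicate block 0 members were called (smallest adjusted p 0.542), and the log2 fold changes were 1.08 for Ncoa3, 0.69 for Hat1 and -0.73 for Brd8. The filter of 5 CPM left 33 members and no value for Hdac11, Sirt4, Mllt1 and Mef2b. With 2 mice per diet, an undetected difference is not an absent one.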
